A study of Homo sapiens with 24 samples.

Results

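SKBR3 cells driven into therapy-induced senescence (TIS) with alisertib were compared with untreated SKBR3 cells kept in culture for the same 7 days. The comparison used 6 of the 24 RNA-seq libraries of the series, 3 from alisertib-treated cells and 3 from untreated day-7 cells, and covered all genes of the deposited count table. SKBR3 is an established breast cancer cell line in which ERBB2 (HER2) is amplified, and all 24 libraries came from it. Alisertib is an inhibitor of the mitotic kinase Aurora A and was given at 500 nmol/L, with a refeed on day 3 and collection on day 7. The untreated day-7 cells received no drug, and their labels name no refeed. Whether they had a medium change on day 3 is not stated, so a refeed effect cannot be told apart from that of alisertib. Libraries from untreated proliferating cells at day 0 and from day-7 cells given 10 nmol/L doxorubicin or 1 µmol/L palbociclib, each also with a refeed on day 3, served as further reference points, with 3 libraries per group. The labels name no solvent for the untreated groups, and they do not say whether the 3 replicates were separate cultures, so p-values describe the spread between these libraries only. As a model, the cells are 1 line at 1 dose and 1 time, and RNA was taken from the whole culture without a selection for senescent cells. Senescence is the study's designation of the treated state, and these libraries measured RNA only.

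Aurora A builds the bipolar spindle and promotes entry into mitosis, and its inhibition delays or derails chromosome segregation, so that cells can leave mitosis with abnormal DNA content. Cells that stop dividing for good after such a stress are called senescent. They usually enlarge, remodel lysosomes and metabolism, and secrete cytokines, growth factors and proteases, a secretion known as the senescence-associated secretory phenotype. DNA that lies outside the nucleus after faulty mitosis can be read by cytosolic sensors, whose signals end in interferon-stimulated genes.

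The 3 alisertib libraries held 30672820, 34538124 and 43705589 counts, and the untreated day-7 libraries held 44316330, 33071915 and 31791397. Euclidean distances between log2 CPM profiles (CPM is the read count per gene scaled to library size with TMM factors) over the 13795 genes tested were 33.12 to 40.33 within alisertib, 37.60 to 46.09 within untreated day 7 and 52.69 to 60.91 between the groups, so every pair of libraries from different groups lay farther apart than any pair from the same group. Of 10 SKBR3 identity markers, 9 were in the table, with ERBB2 reaching 7043 CPM in alisertib cells and 7470 CPM in untreated day-7 cells, while the epithelial cadherin gene CDH1 was not listed. Markers of other cells were sparse: 1 of 10 fibroblast markers (COL1A1), 2 of 10 immune markers (CD68, CSF1R) and 3 of 8 endothelial markers (CDH5, VWF, ESAM) were listed, with maxima of 15.34 CPM (ESAM) or below in these 6 libraries. Every listed gene had reads in every library of the series, so a marker not listed may still have had reads in some.

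The question was which transcripts distinguished alisertib TIS from untreated cells kept in culture for the same time. With edgeR's quasi-likelihood F test and p-values adjusted by Benjamini-Hochberg over all 13795 genes tested, 1318 genes (9.55%) were upregulated and 1309 (9.49%) downregulated in alisertib cells at an adjusted p below 0.05. These 2 shares are the background for the counts of list members called against untreated day 7 below. Most of the differences called were small. Fold-changes under 1.5 made up 673 of the upregulated and 1037 of the downregulated genes. Larger changes leaned upward, with 291 called genes at least 2-fold higher against 81 at least 2-fold lower. At the thresholds of the study, a fold-change of at least 2 with an unadjusted p below 0.05, 350 genes (2.54%) were higher and 101 (0.732%) lower, and 79 of these genes had an adjusted p of 0.05 or above. The 3 alisertib values lay wholly above or below the 3 untreated day-7 values for 5207 genes (37.7%), so a lack of overlap was common. Deviations of same-numbered libraries from their group means correlated weakly (0.114 to 0.229), and the labels do not state that these libraries belong together. With the replicate number as a block the calls rose to 2116 higher and 2025 lower. They fell to 615 and 526 when all 24 libraries shared 1 fit, and to 545 and 517 without alisertib replicate 3, 596 and 584 without untreated day-7 replicate 3, or 760 and 738 without alisertib replicate 2.

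**Figure D1:**
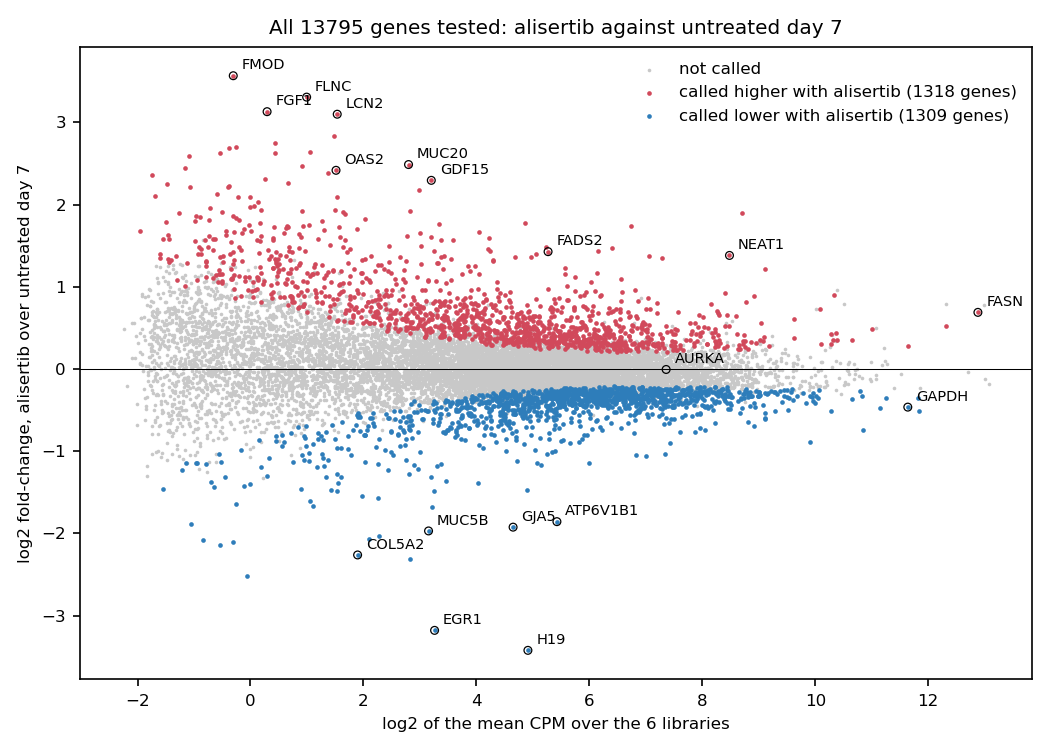
Each point is 1 of the 13795 genes tested, placed by the log2 of its mean CPM over the 6 libraries (x axis) and by its log2 fold-change of alisertib over untreated day 7 (y axis). Red points were called higher (1318 genes), blue points called lower (1309 genes) and grey points were not called, and the labelled genes run from FMOD at 3.57 to H19 at -3.42.

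The 15 genes that rose most had log2 fold-changes of 2.31 to 3.57 (4.97- to 11.8-fold). All 15 were also called higher against untreated day-0 cells. That comparison reuses the alisertib libraries by which the genes were picked, so it is no independent support. Matrix and cytoskeletal genes headed the list. FMOD, which encodes the collagen-binding proteoglycan fibromodulin (GRCh37 chromosome 1, 203309756 to 203320886), stood at 1.697, 1.48 and 1.31 CPM in the alisertib libraries and at 0.111, 0.116 and 0.148 CPM in the untreated day-7 libraries, a log2 fold-change of 3.57 ± 0.33 (adjusted p = 0.000193). FLNC, the actin crosslinker filamin C, had 4.28, 3.17 and 3.43 CPM with alisertib and 0.466, 0.406 and 0.208 CPM without, a log2 fold-change of 3.31 ± 0.29 (adjusted p = 0.000152). Untreated levels as low as those of FMOD and FLNC rest on few reads, so the sizes of such fold-changes are uncertain. The genes that rose or fell most were picked from those without overlap between the groups, so their separation adds no evidence. Values after ± are approximate standard errors throughout, taken as the size of the log2 fold-change divided by the square root of its F statistic. A value in parentheses after a gene is its log2 fold-change of alisertib over untreated day 7 unless stated otherwise.

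Secreted factors were the next group. The growth factor gene FGF1 rose from 0.155, 0.406 and 0.208 CPM to 2.33, 2.31 and 1.95 CPM (log2 fold-change 3.13 ± 0.34; adjusted p = 0.000374). LCN2, which encodes the siderophore-binding defence protein lipocalin-2, measured 3.27, 7.47 and 4.801 CPM in alisertib cells and 0.377, 1.22 and 0.267 CPM in untreated day-7 cells, a log2 fold-change of 3.10 ± 0.46 (adjusted p = 0.00207). The untreated replicate 2 of LCN2 was the highest of its group and alisertib replicate 2 likewise. The pregnancy-specific glycoprotein genes PSG9 and PSG5 rose by log2 fold-changes of 2.74 and 2.63. These genes are near-identical copies on chromosome 19, and reads may be split between them, so their separate values are uncertain. The pseudogene BPIFA4P, a relative of the secreted BPI-fold defence proteins, rose by 2.31 ± 0.34 on the log2 scale.

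Among membrane and signalling genes, the transmembrane mucin gene MUC20 stood at 10.4, 11.4 and 13.5 CPM with alisertib and 1.49, 2.84 and 2.11 CPM without (log2 fold-change 2.49 ± 0.22; adjusted p = 0.000152). A pseudogene copy of MUC20 exists, so some of its reads may belong elsewhere. BRSK2, an AMPK-related kinase gene best known from neurons, had 3.08, 3.17 and 3.3 CPM against 0.443, 0.666 and 0.653 CPM, a log2 fold-change of 2.46 ± 0.24. Its alisertib level also exceeded that of doxorubicin cells by a log2 fold-change of 0.98 ± 0.19 (adjusted p = 0.00329), and that of palbociclib cells by 0.74 ± 0.20 (adjusted p = 0.0183). UGT1A6, a glucuronidation enzyme gene whose last exons are shared by the whole UGT1A cluster, rose by 2.38 ± 0.24 on the log2 scale. The remaining members were the interferon-stimulated gene OAS2, the scavenger receptor family member SCART1 (2.69), the retrotransposon-derived gene RTL5 (2.63) and the non-coding transcripts LCAL1 (2.84) and LINC01977 (2.70), with log2 fold-changes in parentheses.

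The 15 genes that fell most had log2 fold-changes of -3.42 to -1.65. All 15 were also called lower against untreated day-0 cells, again with the alisertib libraries by which they were picked. H19, an imprinted long non-coding RNA that is abundant in the embryo (GRCh37 chromosome 11, 2016396 to 2025782), fell furthest. Its level was 64.9, 40.7 and 59.9 CPM in untreated day-7 cells and 4.56, 5.18 and 5.49 CPM in alisertib cells, a log2 fold-change of -3.42 ± 0.17 (adjusted p = 4.35e-06). EGR1, an immediate-early transcription factor gene induced by growth factor signalling, had 1.76, 2.12 and 1.8 CPM with alisertib. Untreated day-7 cells showed 28.6, 6.34 and 16.9 CPM, and the log2 fold-change was -3.18 ± 0.44 (adjusted p = 0.00135). The untreated libraries of EGR1 spread widely while the alisertib libraries were tight.

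GJA5, the gap junction gene of connexin 40 (GRCh37 chromosome 1, 147228332 to 147245466), had 11.9, 9.78 and 9.52 CPM in alisertib cells and 36.5, 48.6 and 34.3 CPM in untreated day-7 cells (log2 fold-change -1.92 ± 0.14; adjusted p = 8.19e-05). Doxorubicin cells held 32.7, 30.8 and 37.01 CPM and palbociclib cells 38.6, 35.2 and 37.01 CPM of GJA5, close to the untreated range, and alisertib lay below both, with log2 fold-changes of -1.70 ± 0.11 over doxorubicin (adjusted p = 1.83e-06) and -1.84 ± 0.11 over palbociclib (adjusted p = 1.69e-06). The proton pump subunit gene ATP6V1B1 fell from 73.5, 67.2 and 61.8 CPM to 17.4, 20.4 and 17.7 CPM, a log2 fold-change of -1.86 ± 0.10 (adjusted p = 4.35e-06). The fibrillar collagen gene COL5A2 went from 5.59, 6.34 and 6.59 CPM to 1.35, 1.18 and 1.29 CPM (-2.26 ± 0.18). The gel-forming mucin gene MUC5B went from 19.5, 10.9 and 12.1 CPM to 4.998, 2.34 and 3.52 CPM (-1.97 ± 0.27), the opposite direction to MUC20. The others that fell were FAM178B (-2.52), CCDC3 (-2.32), KANK4 (-2.15), BEGAIN (-2.10), TBATA (-2.06), C11orf86 (-2.03), CBLN2 (-1.67), TAFA5 (-1.66) and PSAPL1 (-1.65). Of all these named genes, PSAPL1 lost its call without alisertib replicate 3 (adjusted p = 0.0581) and CBLN2 with all 24 libraries in 1 fit (adjusted p = 0.0526).

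**Figure D2:**
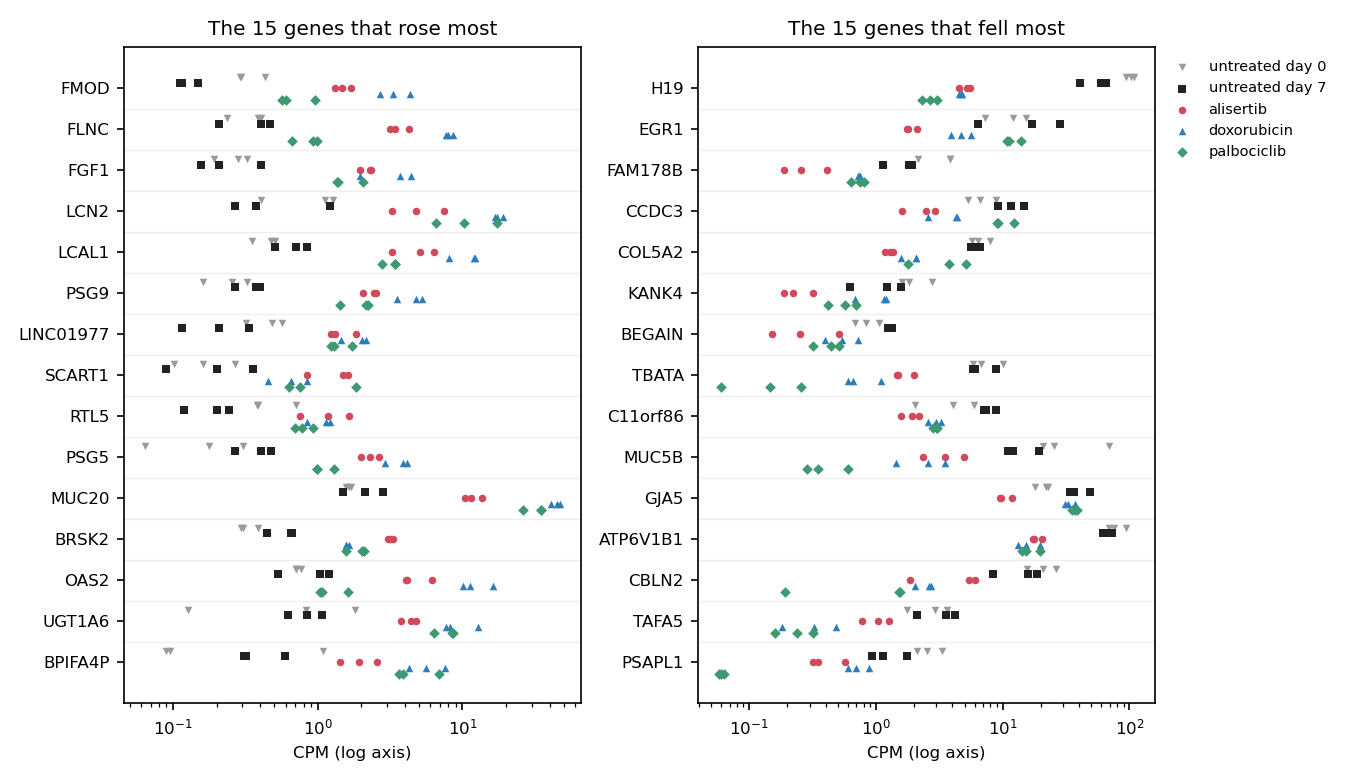
CPM on a log axis (x axis) of the 15 genes that rose most (left) and the 15 that fell most (right) in alisertib against untreated day 7, 1 point per library and 5 groups of 3 libraries per gene. The genes were picked so that the 3 alisertib points are separate from the 3 untreated day-7 points. H19, for instance, lies at 4.56 to 5.49 CPM against 40.7 to 64.9 CPM.

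The drug target itself showed no called change in its transcript. AURKA, the Aurora A gene (GRCh37 chromosome 20, 54944445 to 54967393), had 191, 151 and 148 CPM in alisertib cells and 177, 154 and 164 CPM in untreated day-7 cells, a log2 fold-change of -0.01 ± 0.10 (adjusted p = 0.975), and the groups overlapped. Against untreated day 0, at 218, 194 and 216 CPM, AURKA was called lower (-0.36 ± 0.11; adjusted p = 0.0239). AURKB, the kinase of the chromosomal passenger complex (GRCh37 chromosome 17, 8108051 to 8113918), fell from 16.7, 14.9 and 16.6 CPM to 8.896, 8.25 and 10.2 CPM (-0.80 ± 0.12; adjusted p = 0.00201). With all 24 libraries in 1 fit AURKB was no longer called (adjusted p = 0.1285). The germline paralog AURKC had a log2 fold-change of -0.02 ± 0.36 (adjusted p = 0.975). RNA levels say nothing of the activity of an inhibited kinase.

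Mitotic and replication transcripts were lower on balance, but by little. Of 18 genes of the Aurora kinases, their partners and mitotic entry, 5 fell, none rose and the median log2 fold-change was -0.17, against 0.01 over all genes tested. Those that fell were AURKB, the mitotic entry kinase gene CDK1 (-0.44 ± 0.08), the cyclin gene CCNB2 (-0.37), the phosphatase gene CDC25C (-0.43) and the polo-like kinase gene PLK1 (-0.34). In the spindle checkpoint and kinetochore list 3 of 16 fell (SPC25, CENPE and ZWINT), and among mitotic kinesins and cytokinesis genes 4 of 16 fell (NUSAP1, KIF11, KIF20A and KIF23). No member of either list rose. With the replicate block the counts were 9, 6 and 6, whereas with all 24 libraries in 1 fit they were 0, 0 and 0. The first list kept 2 calls without alisertib replicate 2 or 3 or without untreated day-7 replicate 1 or 3, the second had 0 without alisertib replicate 2, and the third had 2 without alisertib replicate 3 or untreated day-7 replicate 3.

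The S phase and G2/M phase lists gave the same picture in more genes. Of 43 S phase genes, 19 fell and none rose (median -0.25). Of 54 G2/M genes, 17 fell and 1 rose (median -0.23). PRIM1, the catalytic primase subunit, fell most in the S phase list, from 23.7, 22.6 and 22.8 CPM to 12.4, 10.1 and 12.5 CPM (-0.97 ± 0.11; adjusted p = 0.000471). The nucleotide synthesis genes TYMS (-0.73 ± 0.10) and RRM2 (-0.66 ± 0.11) and the replication clamp gene PCNA (-0.55 ± 0.10) also fell. In the G2/M list the histone chaperone gene ANP32E (-0.82 ± 0.10) and the spindle gene NUSAP1 (-0.66 ± 0.08) fell, and RANGAP1, the GTPase activator of the Ran cycle, was the member that rose (0.41 ± 0.07). With the replicate block 25 S phase and 26 G2/M genes fell, against 6 and 3 with all 24 libraries in 1 fit. The S phase count was 12 without alisertib replicate 1, 10 without alisertib replicate 2 and 9 without untreated day-7 replicate 3, and the G2/M count was 8 without alisertib replicate 2 or 3 or untreated day-7 replicate 3. DESeq2 called no S phase or mitotic entry gene higher, and none rose at an unadjusted p below 0.05.

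Per library, the S phase list summed to 3678, 3763 and 4142 CPM in alisertib cells, sorted from lowest to highest, and to 4273, 4766 and 5046 CPM in untreated day-7 cells, with no overlap. The G2/M list summed to 5093, 5365 and 6196 CPM against 6089, 6288 and 6663 CPM, and the highest alisertib library lay inside the untreated range. Palbociclib cells had far lower sums, 1914 to 2159 CPM for S phase and 2831 to 3451 CPM for G2/M. In the direct test, alisertib cells were higher than palbociclib cells in 41 of 43 S phase genes and 50 of 54 G2/M genes and lower in none, against a background of 14.9% of all genes higher. Against doxorubicin they were higher in 18 and 29 and lower in none, against 12.6% of all genes higher. AURKA was likewise higher than with doxorubicin (0.44 ± 0.10; adjusted p = 0.00671) and palbociclib (1.07 ± 0.12; adjusted p = 0.000108). Among other genes used to tell cycling from senescent cells, MKI67, the Ki-67 proliferation marker, had 257, 154 and 192 CPM with alisertib and 344, 244 and 245 CPM without (-0.45 ± 0.18; adjusted p = 0.0919). The nuclear lamina gene LMNB1, named here after its values were seen, had 56.7, 50.4 and 57.5 CPM and 80.5, 66.6 and 79.9 CPM (-0.45 ± 0.09; adjusted p = 0.00864). In bulk RNA, fewer cycling cells and less RNA of these genes per cell cannot be told apart.

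Of 16 replication licensing genes, 6 fell, led by GINS2 (-0.72 ± 0.12), and none rose. With the replicate block 9 fell and 1 rose, 1 also rose without alisertib replicate 1, and the count that fell was 2 without alisertib replicate 2 or with all 24 libraries in 1 fit. Among 15 CDK inhibitor and G1 genes, CDKN2B, the p15 inhibitor of CDK4 and CDK6, rose from 8.27, 10.7 and 10.7 CPM to 27.2, 24.9 and 28.4 CPM (1.46 ± 0.12; adjusted p = 0.000122), and CCND1, the cyclin D1 gene, rose by 0.46 ± 0.11 on the log2 scale. CDK4 (-0.40) and CCND3 (-0.40) fell, and with the replicate block 4 members of the list fell. The 2 rises and 2 falls among 15 genes are shares near the 9.55% and 9.49% of all genes called higher and lower. CDKN2B was lower with alisertib than with doxorubicin (-1.47 ± 0.13; adjusted p = 9.88e-06) or palbociclib (-1.58 ± 0.10; adjusted p = 2.35e-06). CDKN1A, the p21 gene, had 10.97, 12.98 and 9.45 CPM with alisertib and 10.8, 9.88 and 14.9 CPM without, a log2 fold-change of -0.08 ± 0.17 (adjusted p = 0.781).

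Interferon-stimulated genes formed the list with the highest median. Of 21 tested, 13 rose, 2 fell and the median log2 fold-change was 0.77, against 9.55% of all genes called higher. The count was 15 with the replicate block and 10 to 13 with 1 library left out. Many of these genes carry an interferon-stimulated response element (ISRE) at their start, the site that the transcription factor complex ISGF3 binds. The motif GAAANNGAAA, searched on both strands in the 300 bases from 250 before to 50 after each RefSeq start (GRCh38.p14), was found in 996 of 27305 promoters (3.65%) and in 286 of 10679 promoters of genes tested here (2.68%). Of the 21 list members 17 had a promoter entry and 13 of them held the motif. Among the 13 that rose, 12 had an entry and 9 held it. The match describes letters in these windows and no binding.

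To show how the motif sits in promoters of genes that rose, the 160 bases before the start are printed 5′ to 3′ on the gene's strand for the 7 with a match in that stretch, with the matches to the motif or its reverse complement in capitals. They come from RefSeq at GRCh38.p14, in order from chr1:27672193-27672352 (minus strand), chr11:320861-321020 (minus), chr1:1013337-1013496 (plus), chr17:78979924-78980083 (minus), chr12:112938314-112938473 (plus), chr3:122680679-122680838 (plus) and chr7:93117980-93118139 (minus).
IFI6: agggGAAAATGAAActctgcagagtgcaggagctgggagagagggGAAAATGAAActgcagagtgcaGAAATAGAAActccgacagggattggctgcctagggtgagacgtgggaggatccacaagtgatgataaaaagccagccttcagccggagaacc
IFITM3: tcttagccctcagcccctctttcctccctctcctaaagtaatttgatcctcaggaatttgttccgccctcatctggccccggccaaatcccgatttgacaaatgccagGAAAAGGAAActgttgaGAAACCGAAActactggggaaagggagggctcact
ISG15: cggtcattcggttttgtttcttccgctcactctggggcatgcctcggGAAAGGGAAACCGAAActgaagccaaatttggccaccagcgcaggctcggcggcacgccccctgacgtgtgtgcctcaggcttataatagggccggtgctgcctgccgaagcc
LGALS3BP: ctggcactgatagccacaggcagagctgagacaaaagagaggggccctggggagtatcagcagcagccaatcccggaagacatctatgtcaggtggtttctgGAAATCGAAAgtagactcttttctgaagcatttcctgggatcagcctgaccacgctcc
OAS3: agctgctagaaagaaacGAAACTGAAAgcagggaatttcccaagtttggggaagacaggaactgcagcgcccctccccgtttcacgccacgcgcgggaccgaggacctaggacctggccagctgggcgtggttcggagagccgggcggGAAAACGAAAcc
PARP14: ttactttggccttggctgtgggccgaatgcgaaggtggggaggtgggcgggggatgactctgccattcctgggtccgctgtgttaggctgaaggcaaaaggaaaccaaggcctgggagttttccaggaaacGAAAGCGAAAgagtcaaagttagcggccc
SAMD9: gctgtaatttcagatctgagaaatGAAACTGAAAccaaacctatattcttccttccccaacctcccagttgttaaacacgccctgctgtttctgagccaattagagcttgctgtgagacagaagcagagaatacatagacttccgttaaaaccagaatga
IFI6 held 3 matches, IFITM3, ISG15 and OAS3 held 2 each, and LGALS3BP, PARP14 and SAMD9 held 1 each, the pair in ISG15 running into each other.

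The sensors and enzymes of the antiviral state led the rise. OAS2, a 2′-5′ oligoadenylate synthetase gene (GRCh37 chromosome 12, 113416200 to 113449528), had 4.15, 6.18 and 4.05 CPM with alisertib and 0.532, 1.04 and 1.19 CPM without (2.42 ± 0.30; adjusted p = 0.000802). Its paralogs OAS1 and OAS3 rose by 1.27 ± 0.27 and 0.72 ± 0.09. All 3 synthetase genes rose. PARP9 (2.09 ± 0.35), its partner DTX3L (1.16 ± 0.19) and PARP14 (1.94 ± 0.31), which modify proteins by ADP-ribosylation or ubiquitin, rose together from low levels. IFI6, a mitochondrial antiviral gene with 3 motif matches above, rose from 4.81, 7.44 and 5.23 CPM to 11.8, 16.7 and 15.9 CPM (1.36 ± 0.19; adjusted p = 0.001304), and the antiviral GTPase gene MX1 rose from 0.466, 0.927 and 0.772 CPM to 1.98, 1.67 and 1.71 CPM (1.34 ± 0.29). ISG15, a ubiquitin-like modifier gene, measured 3.36, 2.93 and 2.87 CPM with alisertib and 1.596, 1.65 and 2.02 CPM without (0.81 ± 0.20; adjusted p = 0.0184). HERC6 (1.42), SAMD9 (1.22), LGALS3BP (0.60) and IFITM3 (0.43) completed the genes that rose. IFITM2 (-0.80 ± 0.10) and the exonuclease gene ISG20 (-0.45 ± 0.10) fell.

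The components that carry the signal rose in part. IRF9, the DNA-binding subunit of ISGF3, had 17.2, 19.4 and 17.3 CPM in alisertib cells and 4.77, 6.66 and 6.95 CPM in untreated day-7 cells (1.57 ± 0.15; adjusted p = 0.000225). The ISGF3 subunit gene STAT2 (0.39 ± 0.09), IRF1 (0.83 ± 0.15) and the interferon gamma receptor genes IFNGR1 (0.35 ± 0.09) and IFNGR2 (0.35 ± 0.10) were among the 6 of 15 signalling genes that rose. Without alisertib replicate 3 the count was 3. Among 10 sensors of nucleic acids, the RNA helicase genes DHX58 (1.17 ± 0.25) and DDX58 (0.91 ± 0.15), the latter encoding RIG-I, and the kinase gene EIF2AK2 (0.31 ± 0.08) rose, and 1 of them was called without alisertib replicate 3. In antigen presentation HLA-B (0.67 ± 0.16), HLA-C (0.52 ± 0.14) and TAPBP (0.38 ± 0.09) rose of 17 genes, none of which was called without alisertib replicate 3 or with all 24 libraries in 1 fit. The HLA genes are similar in sequence and reads may be shared.

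Doxorubicin cells stood higher in the same list. OAS2 reached 11.2, 16.1 and 10.1 CPM with doxorubicin, and the log2 fold-change of alisertib over doxorubicin was -1.39 ± 0.21 (adjusted p = 0.000602). With palbociclib it had 1.04, 1.62 and 1.07 CPM, and alisertib was higher by 1.94 ± 0.25 (adjusted p = 0.000281). Of the 21 interferon-stimulated genes, 17 were lower and none higher with alisertib than with doxorubicin, where 13.2% of all genes were lower. Against palbociclib 9 of 20 were higher and 2 lower, where 14.9% of all genes were higher and 13.4% lower. Antigen presentation genes were lower with alisertib in 14 of 17 against doxorubicin and 11 of 17 against palbociclib, where 13.4% of all genes were lower.

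The secretory genes changed in a few members. GDF15, a stress-induced cytokine gene of the TGF-β family, rose from 1.86, 5.503 and 2.14 CPM to 13.01, 19.1 and 13.6 CPM (2.29 ± 0.34; adjusted p = 0.00185). Of 14 other cytokine and chemokine genes 5 rose and 1 fell, with a median of 0.37. TNFSF15 (1.82 ± 0.19), a TNF family ligand, rose from 1.75, 1.97 and 1.69 CPM to 6.47, 5.24 and 7.22 CPM. The chemokine genes CCL22 (1.46 ± 0.20) and CX3CL1 (0.91 ± 0.14), the macrophage growth factor gene CSF1 (0.61 ± 0.15) and the angiogenic factor gene VEGFA (0.42 ± 0.12) rose, and the inflammasome cytokine gene IL18 fell (-0.63 ± 0.16). Without alisertib replicate 2 or 3 or untreated day-7 replicate 3 the number that rose was 3. Alisertib cells were lower than doxorubicin cells in 9 of the 14 and higher in none, where 13.2% of all genes were lower. Against palbociclib they were lower in 6 and higher in 2, where 13.4% of all genes were lower and 14.9% higher.

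Among 17 matrix protease and inhibitor genes, the gelatinase gene MMP2 rose from 0.554, 0.348 and 0.356 CPM to 1.603, 2.07 and 1.37 CPM (1.98 ± 0.30; adjusted p = 0.00227), while the growth factor binding protein gene IGFBP2 fell (-0.39 ± 0.11). In all 2 rose and 1 fell, shares near the 9.55% and 9.49% of all genes called higher and lower. With the replicate block 6 members rose and 3 fell, 5 rose without untreated day-7 replicate 2, and none fell with all 24 libraries in 1 fit or without alisertib replicate 2. Of 14 epithelial defence genes, LCN2, the immunoglobulin transporter gene PIGR (1.92 ± 0.37), the trefoil factor gene TFF3 (1.07 ± 0.22) and BPIFB1 (0.85 ± 0.25) rose, and the calcium-binding protein gene S100P fell (-0.59 ± 0.18), of which 1 rise and no fall were called with all 24 libraries in 1 fit. In the NF-κB list BIRC3 (0.76 ± 0.16) and RELB (0.37 ± 0.11) rose and TNFAIP2 fell (-0.50 ± 0.12), of 15, shares close to the 9.55% and 9.49% of all genes. The number that rose was 5 with the replicate block and 1 with all 24 libraries in 1 fit or without alisertib replicate 1, and none fell in that fit or without alisertib replicate 2. Doxorubicin exceeded alisertib in 12 of the 17 matrix, 11 of the 14 defence and 11 of the 15 NF-κB genes, against 13.2% of all genes. Alisertib was higher in 2 of the matrix genes, 1 of the defence genes and none of the NF-κB genes.

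Lipid synthesis genes rose broadly. Of 23 genes of cholesterol synthesis and uptake, 14 rose, none fell and the median log2 fold-change was 0.43. The mevalonate pathway enzyme gene MVD rose from 37.3, 32.9 and 35.02 CPM to 59.97, 60.7 and 66.5 CPM (0.84 ± 0.08; adjusted p = 0.000237). LSS, which closes the sterol ring, rose from 85.9, 78.9 and 88.3 CPM to 139.9, 141 and 163 CPM (0.82 ± 0.08; adjusted p = 0.000258). Neither gene had overlapping groups. The sterol oxidase gene MSMO1 (0.80 ± 0.09), the epoxidase gene SQLE (0.65 ± 0.08), the SREBP retention gene INSIG1 (0.62 ± 0.08) and HMGCS1 (0.50 ± 0.07), the enzyme upstream of HMG-CoA reductase, rose too. The count was 11 to 13 with 1 library left out and 4 with all 24 libraries in 1 fit.

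In fatty acid synthesis 11 of 18 genes rose and none fell (median 0.32). FADS2, the delta-6 desaturase gene, changed most, from 19.1, 27.5 and 16.6 CPM to 51.4, 57.8 and 58.9 CPM (1.43 ± 0.16; adjusted p = 0.000396). FASN, the fatty acid synthase gene that SKBR3 cells express very highly, went from 6376, 5753 and 5289 CPM to 9069, 9435 and 9288 CPM (0.69 ± 0.09; adjusted p = 0.000802). Every alisertib library of FASN exceeded every untreated one. The stearoyl desaturase gene SCD (0.53 ± 0.11), ATP citrate lyase ACLY (0.35 ± 0.07), acetyl-CoA carboxylase ACACA (0.34 ± 0.09), the malic enzyme gene ME1 (0.79 ± 0.14) and SREBF1 (0.31 ± 0.09), the transcription factor of the pathway, rose as well. The count was 4 without untreated day-7 replicate 3, 7 without alisertib replicate 2 and 5 with all 24 libraries in 1 fit. Between day 0 and day 7 of untreated culture 5 of these genes rose, where 0.389% of all genes did.

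Summed over the list, fatty acid synthesis genes made 19760 to 20890 CPM in alisertib cells, 13010 to 14860 CPM in untreated day-7 cells and 8615 to 9971 CPM at day 0, and cholesterol genes 5125 to 5822, 4151 to 4550 and 3915 to 4718 CPM. Alisertib exceeded doxorubicin in 14 and palbociclib in 20 of the 23 cholesterol genes, against 12.6% and 14.9% of all genes. It was lower in none of them in either comparison. For the 18 fatty acid synthesis genes the corresponding numbers were 8 higher and 1 lower against doxorubicin and 7 higher and 3 lower against palbociclib. Over all genes, 13.2% were lower than with doxorubicin and 13.4% lower than with palbociclib. Storage and oxidation genes split against untreated day 7, where 9.55% of all genes tested were called higher and 9.49% lower. PDK4 (1.06 ± 0.27), ANGPTL4 (0.79 ± 0.14) and HILPDA (0.73 ± 0.08) rose, while the adipogenic receptor gene PPARG (-0.98 ± 0.17) and the lipid droplet coat gene PLIN2 (-0.85 ± 0.16) fell, of 15 genes, and 5 rose with the replicate block and 2 with all 24 libraries in 1 fit.

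Glycolysis ran the other way. Of 22 genes of glycolysis and the hypoxia response, a list that the figures label glycolysis, 11 fell and 1 rose (median -0.25). The list summed to 11400 to 12300 CPM in alisertib cells and 13720 to 16300 CPM in untreated day-7 cells. Its hypoxia members ADM (0.53), ANKRD37 (0.71), EGLN3 (0.06), BNIP3 (-0.11) and NDRG1 (-0.07) were not called. GAPDH, often used as a constant reference, had 2858, 2545 and 2589 CPM with alisertib and 4142, 3265 and 3723 CPM without (-0.46 ± 0.10; adjusted p = 0.00949). TPI1 (-0.53 ± 0.09), LDHA (-0.52 ± 0.08), PGAM1 (-0.46 ± 0.09) and PKM (-0.41 ± 0.11) fell, and SLC2A1, the glucose transporter GLUT1, rose (0.32 ± 0.09). The count that fell was 5 without untreated day-7 replicate 3, 7 without alisertib replicate 2 or 3 and 6 with all 24 libraries in 1 fit.

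**Figure D3:**
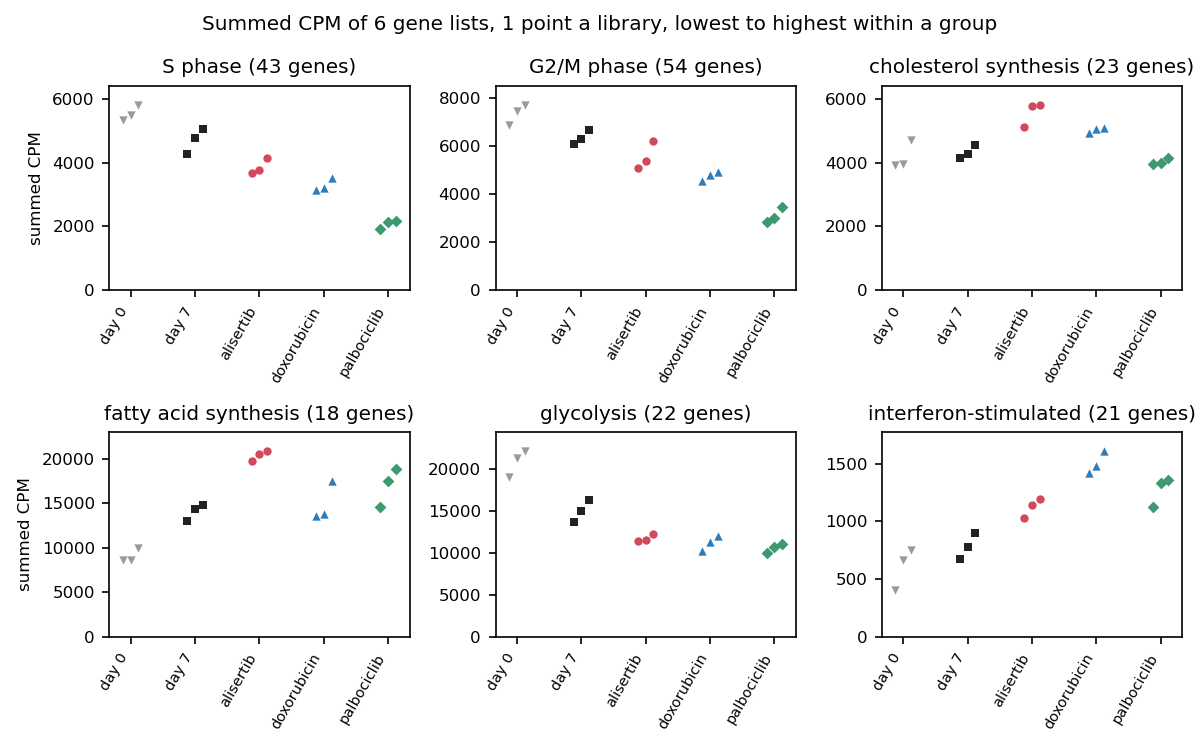
Summed CPM (y axis, starting at 0) of 6 gene lists in 5 groups (x axis), 1 point per library, drawn from the lowest to the highest within each group. The alisertib points lie below untreated day 7 for S phase and for glycolysis, a list that also holds hypoxia-response genes. They lie above it for cholesterol synthesis, fatty acid synthesis and interferon-stimulated genes. For G2/M they overlap it, with the highest alisertib sum at 6196 CPM against 6089 to 6663 CPM.

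Growth and stress genes moved modestly. Of 24 ribosome biogenesis genes 10 fell and none rose (median -0.23), led by fibrillarin FBL (-0.56 ± 0.07) and nucleophosmin NPM1 (-0.42 ± 0.07), and 3 fell without alisertib replicate 2 or 3 or untreated day-7 replicate 3. Of 27 ribosomal protein genes 5 fell, a count of 18 with the replicate block and of 0 without alisertib replicate 3 or with all 24 libraries in 1 fit. Ribosomal protein genes have many processed pseudogenes, and reads may be shared with them. In the unfolded protein and integrated stress response list 5 of 18 rose, among them the transcription factor genes DDIT3 (0.76 ± 0.23) and ATF3 (0.62 ± 0.08), and HERPUD1 fell (-0.40 ± 0.08). Only 2 of them were called higher without alisertib replicate 2, and 1 with all 24 libraries in 1 fit. Of 27 lysosome genes 6 rose, including the glucosidase gene GAA (0.64 ± 0.11) and the ceramidase gene ASAH1 (0.42 ± 0.09), and the lysosomal regulator gene TFEB fell (-0.39 ± 0.12). Over all genes, 9.55% were called higher and 9.49% lower. The number of lysosome genes that rose was 10 with the replicate block and 2 without alisertib replicate 3 or with all 24 libraries in 1 fit. Among 14 BCL2 family genes the proapoptotic members BID (-0.39 ± 0.10) and BAK1 (-0.31 ± 0.08) fell, which is near the 9.49% of all genes called lower. None fell without alisertib replicate 2, and 1 member rose with the replicate block.

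Cytoskeletal genes showed opposite changes within families. Of 13 tubulin and microtubule regulator genes, TUBB3, the neuronal β-tubulin, rose from 2.99, 3.24 and 2.67 CPM to 11.3, 11.3 and 10.9 CPM (1.92 ± 0.14; adjusted p = 6.71e-05), and the microtubule-associated protein gene MAP1B rose from 0.133, 0.406 and 0.297 CPM to 1.29, 1.29 and 1.2 CPM (2.22 ± 0.36). TUBA4A (0.73 ± 0.08) and TUBB2A (0.62 ± 0.14) rose as well. The microtubule destabiliser gene STMN1 (-0.78 ± 0.11), TUBA1A (-0.39 ± 0.11) and TUBA1B (-0.39 ± 0.12) fell, and tubulin paralogs may share reads. With the replicate block 5 members fell, and 1 fell without alisertib replicate 2 or with all 24 libraries in 1 fit. Of 20 actin and adhesion genes 6 fell, among them the cytoplasmic actins ACTB (-0.51 ± 0.09) and ACTG1 (-0.61 ± 0.08) and vinculin VCL (-0.54 ± 0.08), while 2 rose, among them the hyaluronan receptor gene CD44 (0.37 ± 0.11). The 2 rises are a share near the 9.55% of all genes called higher, and 9.49% of all genes were called lower. The count that fell was 3 without alisertib replicate 2.

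Of 18 targets and partners of YAP and SRF, 6 fell and 1 rose, against 9.49% and 9.55% of all genes called lower and higher. CCN2, the connective tissue growth factor gene, had 6.19, 4.54 and 4.33 CPM with alisertib and 27.98, 5.82 and 8.29 CPM without (-1.49 ± 0.47; adjusted p = 0.0465), and the untreated replicate 1 stood far above the other two. The smooth muscle actin gene ACTA2 was the member that rose (1.42 ± 0.42). The count that fell was 2 without alisertib replicate 2. Alisertib was lower than doxorubicin in 13 of these 18 genes and in 14 of 20 actin and adhesion genes, against 13.2% of all genes. It was higher in none of either list. Among 12 keratins, KRT16 (1.66 ± 0.27), KRT80 (0.86 ± 0.14) and KRT81 (0.43 ± 0.07) rose and KRT13 (-1.04 ± 0.28) and the luminal pair KRT8 (-0.36 ± 0.10) and KRT18 (-0.27 ± 0.08) fell. These 3 rises and 3 falls compare with 9.55% and 9.49% of all genes called higher and lower. With the replicate block 6 rose, and no keratin fell without alisertib replicate 2 or with all 24 libraries in 1 fit. ERBB2 itself had 7043, 6045 and 6716 CPM against 7470, 6647 and 6323 CPM (-0.03 ± 0.09; adjusted p = 0.843). In the list of 19 receptor and luminal genes TFAP2B (-1.03 ± 0.25) and EGFR (-0.31 ± 0.09) fell, a share close to the 9.49% of all genes called lower, and none rose. The count that fell was 4 with the replicate block, 1 with all 24 libraries in 1 fit and 0 without alisertib replicate 2.

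Of 15 histone genes 4 fell, among them the linker histone gene H1-10 (-0.67 ± 0.11), H2AZ1 (-0.48 ± 0.07) and H3-3A (-0.44 ± 0.08), and H2BC5 rose (0.39 ± 0.11). The 1 rise is a share below the 9.55% of all genes called higher, and 9.49% of all genes were called lower. The count that fell was 6 with the replicate block.

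NEAT1, the scaffold RNA of paraspeckles, had 264, 563 and 717 CPM in alisertib cells and 189, 194 and 216 CPM in untreated day-7 cells (1.38 ± 0.26; adjusted p = 0.00624). Its alisertib libraries spread widely, and all 3 lay above the untreated ones. The nuclear non-coding RNA list that contains it summed to 576.3, 944.3 and 1119 CPM in alisertib cells, sorted, and to 408.2, 434.0 and 609.1 CPM in untreated day-7 cells. Mitochondrial mRNA took 3.82%, 2.23% and 2.80% of counts in the alisertib libraries and 2.93%, 1.22% and 1.37% in the untreated day-7 libraries, so replicate 1 was the highest in both groups. None of 13 mitochondrial mRNAs was called by edgeR or DESeq2 (median log2 fold-change 0.58), and 6 were higher at an unadjusted p below 0.05, while 11 were called higher with the replicate block and 12 without untreated day-7 replicate 1. Whether either measure of RNA composition has a part in the other differences was not tested.

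Few genes were called between the untreated groups. Between day 7 and day 0, 53 genes (0.389%) were called higher and 27 (0.198%) lower, although DESeq2 called 548 and 584. Against day 0, alisertib cells had 2438 genes higher (17.7%) and 2697 lower (19.6%). The 2 comparisons with untreated cells share the alisertib libraries. S phase genes fell in 19 of 43 against day 7 and in 33 against day 0, and G2/M genes in 17 and 33 of 54. Interferon-stimulated genes rose in 13 of 21 against day 7 and 14 of 20 against day 0. Genes of the glycolysis and hypoxia list fell in 11 and 13 of 22. From day 0 to day 7 the untreated cells alone had median log2 fold-changes of -0.20 in S phase and -0.29 in glycolysis and hypoxia. The medians were 0.58 in fatty acid synthesis and 0.37 in interferon-stimulated genes.

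Compared directly, alisertib cells were higher than doxorubicin cells in 1754 genes (12.6%) and lower in 1842 (13.2%), and higher than palbociclib cells in 2060 (14.9%) and lower in 1856 (13.4%). Of the 15 genes that alisertib raised most over untreated day 7, 2 were higher with alisertib than with doxorubicin, 10 were lower and 3 were not called, and against palbociclib 5 were higher, 4 lower and 6 not called. Of the 15 that fell most, 2 were higher, 5 lower and 8 not called against doxorubicin, and 6 higher, 7 lower and 2 not called against palbociclib. EGR1 was lower with alisertib than with doxorubicin (-1.33 ± 0.20; adjusted p = 0.000663), at 4.65, 5.64 and 3.897 CPM, and palbociclib (-2.67 ± 0.17; adjusted p = 2.35e-06), at 11.1, 10.9 and 13.9 CPM. MUC5B was higher with alisertib than with palbociclib (3.11 ± 0.37; adjusted p = 0.000144), although it had fallen against untreated cells.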

How the data were processed

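RNA libraries of SKBR3 cells were sequenced. Per the labels the kit was for stranded mRNA, while the study's methods give one for stranded total RNA. The authors aligned reads to GRCh37 with HISAT2 2.1.0, counted genes with StringTie 2.1.3b and deposited a table of read counts for 14493 genes (12343 protein-coding) in 24 libraries. Counting settings and strand use are not given in the sources used here. The lowest count in the table is 1, so every listed gene has reads in all 24 libraries. A gene that lacked reads in even 1 library is not listed.

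Differences in the deposited counts were tested by edgeR 4.0.16 under R 4.3.3 (filterByExpr, TMM, glmQLFit and glmQLFTest, 2-sided) on the 6 libraries of each pair of groups, without a block, and called at a Benjamini-Hochberg adjusted p below 0.05 over all genes tested. For CPM values, TMM factors were taken over all 24 libraries, and a prior count of 2 was added before logs. The S and G2/M lists came with Seurat 5.3.0, and the members, the other lists and the alternatives were chosen with earlier results of these data known. Genes were named as the 15 that rose most and the 15 that fell most by log2 fold-change (5 and 5 in comparisons with other drugs) among those with an adjusted p below 0.05, no overlap between groups and a mean of at least 1 CPM in the higher group, with the Aurora kinase genes and members of the lists. Some genes are not reported here. Genes given as other observations were chosen after their values were seen.

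Alternatives were DESeq2 1.42.0, scaling by RLE, testing every listed gene, a stricter minimum of 10 counts per library, 1 fit to all 24 libraries, the replicate block, day 0 as the reference and leaving out each library. Pairing was checked by the correlation of same-numbered libraries' deviations from their group means, which was 0.160, 0.229 and 0.114 for replicates 1, 2 and 3 of alisertib and untreated day 7, and 0.192, 0.242 and 0.287 against palbociclib. Differently numbered libraries were not compared in this way. In simulated counts for the main comparison (13730 genes) edgeR recovered 93 of 100 genes changed by 1 and 100 of 100 changed by 2 on the log2 scale, with 12 false calls. The changed genes were drawn only from genes with higher mean counts, so recovery at low counts was not tested. Libraries were simulated independently, without the shared deviation of same-numbered libraries. Gene positions are of GRCh37, and promoters are from RefSeq on GRCh38.p14.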

Additional observations from a re-analysis of the deposited data

Results flagged for a closer look

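Alisertib differed from the other inducers in direct tests, which are listed here as values. Against doxorubicin, 1754 genes were higher and 1842 lower, and against palbociclib 2060 were higher and 1856 lower. These counts came from the test of the difference between 2 treated groups (edgeR's quasi-likelihood test).

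By the rule for named genes, the genes highest with alisertib relative to doxorubicin, given as log2 fold-changes, were the readthrough gene DNAJC25-GNG10 (5.91), whose reads may belong to its neighbours, LOC101929613 (1.90), the phosphodiesterase gene PDE10A (1.87), the potassium channel partner gene KCNIP3 (1.84) and the adrenergic receptor gene ADRA2B (1.75). The lowest were the trichohyalin genes TCHH (-4.16) and TCHHL1 (-3.56), the acute-phase gene SAA1 (-3.87), the intestinal glucosidase gene MGAM (-3.63) and the cathepsin gene CTSS (-3.58). SAA1, for instance, had 0.409, 0.537 and 0.6001 CPM with alisertib, 8.23, 5.96 and 8.73 CPM with doxorubicin and 0.288, 0.406 and 0.119 CPM in untreated day-7 cells.

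Relative to palbociclib, the highest were LOC112694756 (5.01), the vesicular monoamine transporter gene SLC18A2 (3.94), TBATA (3.40), MUC5B (3.11) and the proteoglycan gene BGN (3.00). The lowest were the GABA receptor gene GABBR2 (-3.96), the calcification inhibitor gene MGP (-3.93), the sodium channel gene SCN8A (-3.61), FAM83A (-3.61) and the cyclooxygenase-1 gene PTGS1 (-3.51). TBATA and MUC5B were lower with alisertib than in untreated day-7 cells and higher than with palbociclib. Groups of 3 libraries were not tested for outlying samples.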

How the results depend on the processing

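For alisertib against untreated day 7, 1318 genes were higher and 1309 lower. All 24 libraries in 1 fit gave 615 and 526, the replicate block 2116 and 2025, and day 0 as the reference 2438 and 2697, with 890 and 198 at the study thresholds. Leaving out 1 library gave 545 to 1325 higher and 517 to 1475 lower. Against day 0 it gave 1478 to 2623 higher and 1650 to 2666 lower. For day 7 against day 0, DESeq2 gave 548 and 584, no filter 0 and 0, all 24 libraries in 1 fit 245 and 196, the block 713 and 550, and leaving out 1 library 0 to 54 and 0 to 40. Against doxorubicin all 24 libraries in 1 fit gave 809 and 1014, and leaving out 1 library 1012 to 1972 higher. Against palbociclib all 24 libraries in 1 fit gave 1351 and 1124. The cause of these differences was not tested. The larger of the higher and lower counts changed sides with some settings, such as DESeq2 for alisertib against untreated day 7 (1476 higher and 1562 lower). No gene named by rank turned its direction. With day 0 as the reference, the list members H2BC5 (0.39 against day 7) and BPIFB1 (0.85) had log2 fold-changes of -0.28 (adjusted p = 0.246) and -0.56 (adjusted p = 0.366), neither called. Same-numbered libraries correlated at 0.021 to 0.225 for alisertib and doxorubicin and at 0.083 to 0.204 for alisertib and day 0. The labels state no pairing in any comparison, so the block rests on replicate numbers. Of the genes named by rank for day 7 and the Aurora kinase genes, none lost its call under the block, DESeq2, RLE size factors or no filter. Some list members did, such as S100P with DESeq2 and TFEB with no filter. Counting the genes named by rank in all comparisons and the Aurora kinase genes, 53 were tested with DESeq2. Only 34 passed the stricter minimum of 10 counts per library, so the others were not tested there.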

Other observations

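Abundant genes outside the lists, chosen after their values were seen, also separated alisertib from untreated day-7 cells. CYP1A1, the monooxygenase gene that the aryl hydrocarbon receptor induces, had 479.7, 819 and 657 CPM with alisertib and 54.4, 376 and 98.96 CPM in untreated day-7 cells (log2 fold-change 1.90 ± 0.54; edgeR's adjusted p = 0.0313). The untreated replicates of CYP1A1 differed widely. All 3 alisertib libraries were higher, but the gene was chosen with these values seen, and 37.7% of all genes tested had no overlap, so the separation adds no evidence. Its relative CYP1B1 rose by 0.93 ± 0.23 (adjusted p = 0.0195), whereas the receptor's feedback genes AHRR (0.18 ± 0.13; adjusted p = 0.342) and TIPARP (0.18 ± 0.09; adjusted p = 0.189) were not called. SPTSSB, a small subunit of serine palmitoyltransferase, the entry enzyme of sphingolipid synthesis, rose from 37.2, 39.8 and 39.2 CPM to 111, 99.6 and 100.4 CPM (1.43 ± 0.08; adjusted p = 4.35e-06) and was also higher than with doxorubicin (1.58 ± 0.10; adjusted p = 1.62e-06) and palbociclib (1.18 ± 0.19; adjusted p = 0.00107). The sialyltransferase gene ST6GAL1 rose from 95.8, 90.95 and 77.8 CPM to 264, 187 and 216 CPM (1.35 ± 0.12; adjusted p = 0.000152). The tetraspanin-like surface gene TM4SF1 rose by 1.38 ± 0.10.

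Genes of the oxidative stress response were mixed. The heme oxygenase gene HMOX1 rose from 36.4, 35.2 and 30.7 CPM to 80.9, 72.6 and 66.9 CPM (1.12 ± 0.10; adjusted p = 0.000151). Ferritin heavy chain FTH1 (0.91 ± 0.18), the autophagy receptor gene SQSTM1 (0.88 ± 0.08) and the glutathione synthesis gene GCLM (0.73 ± 0.15) were called higher, while NQO1 (0.29 ± 0.20; adjusted p = 0.331) and SRXN1 (0.05 ± 0.08; adjusted p = 0.6703) were not called. Among genes that fell, ID1 (-1.15 ± 0.34), ID2 (-1.0 ± 0.16) and ID3 (-0.90 ± 0.20), inhibitors of basic helix-loop-helix factors, were all lower. So were the E2F-regulated transcription factor gene MYBL2 (-1.06 ± 0.12), the receptor gene FGFR3 (-1.47 ± 0.21) and the calcium-binding protein genes S100A4 (-0.74 ± 0.08), S100A14 (-0.64 ± 0.07) and S100A16 (-0.69 ± 0.11). The adenosine receptor gene ADORA2A fell from 279.7, 184 and 188 CPM to 100.2, 116 and 98.9 CPM (-1.04 ± 0.14; adjusted p = 0.00135) and was also lower than with doxorubicin (-0.84 ± 0.09; adjusted p = 4.24e-05) and palbociclib (-1.03 ± 0.11; adjusted p = 9.62e-05).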
